A study of Homo sapiens with 24 samples.

Results

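Long internal exons are the exception in human genes, in which most internal exons are recognised as short units between longer introns. Splicing removes an intron by joining the 5′ splice site at its start to the 3′ splice site at its end, and the SF3b complex, with SF3B1 and PHF5A among its subunits, holds the branch point adenosine just before the 3′ splice site. E7107 is a splicing modulator of the pladienolide family that binds SF3b and inhibits this step. When the 3′ splice site of an exon is not used, the preceding intron can stay in the RNA (intron retention) or the exon can be left out together with both introns (exon skipping).

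The data came from HCT116 cells, a human colorectal carcinoma line, that had been transduced with a lentivirus and selected to express either WT PHF5A or PHF5A with the Y36C substitution, over their own PHF5A. Each line was treated with DMSO, the vehicle, or with E7107, which gave 4 groups of 6 samples and 24 samples in all. They are named by line and treatment, from WT DMSO to Y36C E7107. The study's methods describe replicate treatments of each line for 6 h, with 6 per group, and name 2 concentrations of E7107. Its results describe RNA-seq under the lower of the 2. The labels give no dose, so the concentration behind the E7107 samples cannot be read from them. Each line is 1 selected population, and p-values measure the spread between samples of it and not between independently made lines. Poly(A) RNA was sequenced, and the values are percent spliced in (PSI): the percentage of the reads at 1 splice site that use a given junction, or that run across the exon–intron boundary unspliced. The percentages at a site add up to 100, so a rise in one takes from the others. Read counts are not in the values, so the depth behind a percentage is unknown. Splice sites with reads numbered 336249 to 340081 in the DMSO samples, 328458 to 331604 in the Y36C E7107 samples and 281164 to 283548 in the WT E7107 samples, and 207244 sites had reads in all 24 samples. Neither the PHF5A substitution nor the identity of the cell line can be read from junction percentages.

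Members were chosen by position and by measured inclusion. A member was a set of 3 junctions on one strand, in which the first joined an upstream 5′ splice site to the start of a span of 400 to 1500 bases, the second joined its end to a downstream 3′ splice site, and the third skipped the span. Both inclusion junctions had a mean PSI of at least 50% over the 12 DMSO samples, and both outer sites had reads in all 24 samples. This gave 9284 sets over 9160 distinct spans, of 82949 sets of any length under the same inclusion rule. High inclusion under DMSO is therefore a condition of membership and not a result.

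The name "long internal exon" held for a minority of these spans. Of the 9160 spans, 7919 had an annotated intron inside and were runs of several exons with their introns, 1218 matched 1 annotated exon exactly, and 23 were neither. Among the 1218 annotated exons, 494 had a splice junction inside them that was itself used at a mean PSI of 50% or more in DMSO samples. The remaining 724 exons in 683 genes (748 sets) had none, and are called long exons below. The other spans are called multi-exon spans or interrupted exons and are given separately. Long exons had a median length of 600 bases, 69.9% were coding over their whole length against 95.3% of 38578 exons of 50 to 250 bases chosen by the same rule, and 38.3% had a length divisible by 3 against 41.0%. Skipping was an annotated event for 21.3% of them. At the length limits lay exons of INF2 (400 bases) and DAG1 (401) inside and of FASTKD1 and CLCN3 (399 each) outside, and of SRCAP (1499) inside and TAB2 (1501) outside. The lowest inclusion inside the limit was that of ACSL3 (50.02%) and NLGN2 (50.19%).

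Before their values, the 3′ splice sites of long exons that recur below show how different these exons can be. Each line holds the last 50 bases of the upstream intron in lower case and the first 10 bases of the long exon in capitals, 5′ to 3′, from the GRCh37 sequence, on which the hg19 coordinates of the files can be read. CRKL, FOXO3, CHSY1 and MBNL1 are shown because they were skipped in WT cells under E7107, PLEKHH3 and HIRIP3 because they were skipped more in Y36C than in WT cells under E7107, and KLF4, DUSP6 and KLF2 because their upstream intron was retained.
CRKL, chr22:21288017-21288076, plus strand: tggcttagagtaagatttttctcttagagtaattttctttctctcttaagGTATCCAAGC
FOXO3, chr6:108984608-108984667, plus strand: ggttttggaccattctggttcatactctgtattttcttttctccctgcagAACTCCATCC
CHSY1, chr15:101775773-101775832, minus strand: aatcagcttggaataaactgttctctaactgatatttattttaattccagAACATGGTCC
MBNL1, chr3:152017144-152017203, plus strand: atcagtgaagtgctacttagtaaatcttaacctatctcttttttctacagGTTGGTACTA
PLEKHH3, chr17:40822385-40822444, minus strand: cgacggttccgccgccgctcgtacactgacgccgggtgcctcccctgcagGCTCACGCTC
HIRIP3, chr16:30006155-30006214, minus strand: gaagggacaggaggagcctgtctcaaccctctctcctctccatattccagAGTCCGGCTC
KLF4, chr9:110250539-110250598, minus strand: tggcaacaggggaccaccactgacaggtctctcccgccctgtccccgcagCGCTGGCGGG
DUSP6, chr12:89744793-89744852, minus strand: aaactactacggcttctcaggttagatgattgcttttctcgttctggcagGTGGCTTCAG
KLF2, chr19:16435977-16436036, plus strand: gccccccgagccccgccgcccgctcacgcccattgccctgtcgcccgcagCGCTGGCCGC
The 50 intronic bases held 28% G and C at CHSY1, 30% at CRKL, 32% at MBNL1, 42% at FOXO3, 44% at DUSP6, 56% at HIRIP3, 68% at KLF4, 74% at PLEKHH3 and 82% at KLF2. All ended in AG, and 65 to 90% of the 20 bases before the AG were pyrimidines. The motif CTNAC, a form of the human branch point consensus searched on the transcribed strand of these 50 bases, occurred at CHSY1, PLEKHH3, KLF4 and KLF2. It occurred in 23.6% of long exons and in 23.2% of exons of 50 to 250 bases. A match is not a mapped branch point.

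In WT PHF5A cells, the intron before long exons was more often unspliced under E7107. Retention is given here as the PSI of the boundary at the exon's own 3′ splice site. Averaged over the 706 long exons with reads there in every sample, it was 4.73% ± 0.18 (SD, n = 6) in WT DMSO and 25.4% ± 1.0 in WT E7107, where single samples lay between 24.1 and 26.3%. In Y36C cells it was 4.66% ± 0.21 under DMSO and 6.89% ± 0.15 under E7107. The exons of 50 to 250 bases went from 3.42% ± 0.13 to 15.2% ± 0.9 in WT and from 3.3% ± 0.11 to 5.58% ± 0.11 in Y36C cells. The samples of the WT E7107 group did not overlap with those of any other group in either class, and the long exons lay above the shorter ones in every group. At the 5′ splice site at the end of the long exon, the boundary went from 4.34% ± 0.26 to 26.9% ± 1.0 in WT and from 4.15% ± 0.12 to 5.91% ± 0.29 in Y36C cells.

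**Figure D1:**
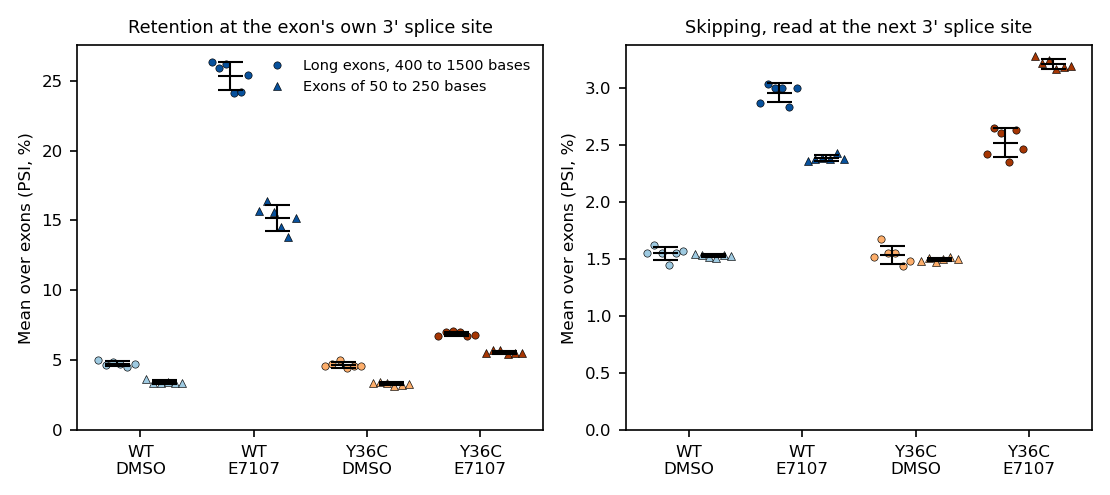
Mean PSI (%) over exons in each sample for retention at the exon's own 3′ splice site (left) and skipping (right), for long exons (circles) and exons of 50 to 250 bases (triangles). Points are samples, and bars are the mean and SD of 6 samples. Retention in WT E7107 averaged 25.4% for long exons and 15.2% for shorter ones, and skipping was higher for long exons in WT E7107 but lower in Y36C E7107.

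Counted exon by exon (limma on the log odds of PSI, with Benjamini–Hochberg adjustment over all rows of the table and a call at an adjusted p of 0.05 or less), retention rose at 377 and fell at 7 of 455 long exons tested in WT cells. This is 82.9% higher, beside 69.0% higher and 6.49% lower among all boundaries at 3′ splice sites. In Y36C cells it rose at 80 and fell at 3 of 264 tested, or 30.3% higher, beside 26.6% higher and 1.48% lower among all boundaries. The Y36C count is thus near its background. Among exons of 50 to 250 bases, retention rose at 73.2% of those tested in WT and at 33.8% in Y36C cells. The members were also chosen on DMSO replicates 1 to 3, with DMSO replicates 4 to 6 tested against all 6 E7107 samples. This left 364 increases of 469 in WT cells. In Y36C cells it left 52 of 285, a smaller share than the 80 of 264 above. The share among all boundaries was not computed for these fits. A boundary entered the test if no sample of 1 or more of the groups compared was at 0, so 233 of the 377 increases in WT cells and 17 of the 80 in Y36C cells entered only through the E7107 group and had to differ.

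A direct comparison under E7107, whose values the rule did not use, gave lower retention in Y36C than in WT cells at 369 and higher retention at 29 of 460 long exons tested. This is 80.2% lower, beside 61.6% lower and 12.5% higher among all boundaries. The interaction of genotype and treatment, which asks whether the E7107 effect differed between the lines, was negative at 343 and positive at 17 of 479 exons, or 71.6% negative beside 53.4% negative and 9.71% positive among all boundaries. The filter on samples at 0 held here too. An exon with every Y36C E7107 sample above 0 was also among the 264 tested in Y36C cells. The rest of the 460 entered only through WT E7107 and had to differ. These retention counts between the lines, here and below, therefore describe the calls, and so do those of the interaction. Inclusion, read as the junction from the long exon into the next 3′ splice site, was higher in Y36C than in WT cells under E7107 at 394 and lower at 55 of 728 long exons. This is 54.1% higher, beside 39.3% higher and 14.6% lower among inclusion junctions of sets of any length. As a description, since the rule fixed its DMSO level, mean inclusion went from 92.1 to 71.7% under E7107 in WT cells and from 92.4 to 89.5% in Y36C cells.

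Without E7107 few long exons were called as different between the genotypes. Retention was called at 3 of 249 tested (2 higher and 1 lower in Y36C), beside 0.421% of all boundaries, with 43 at an unadjusted p under 0.05 (limma). Skipping was called at 0 of 94, beside 0.703% of skipping junctions, with 11 at an unadjusted p under 0.05. Both unadjusted counts are above the share of 0.05 that chance gives, so few calls do not show that the lines were alike. TSEN54, described below, was one of the 3 exons called for retention, and none of the 3 calls remained with the replicate number as a block in the fit.

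Mean retention under E7107 in WT cells was higher in each longer class of exons below 1000 bases, a description with no test. Its mean was 13.0% for exons of 3 to 40 bases, 15.2% for 50 to 250, 21.9% for 251 to 399, 24.7% for 400 to 599, 28.1% for 600 to 999, 20.7% for 1000 to 1500 and 23.3% for exons over 1500 bases, while the WT DMSO means of these classes lay between 2.40 and 5.15%. In Y36C cells under E7107 the same classes had means of 5.81, 5.58, 6.65, 6.72, 7.42, 6.14 and 2.54%. Skipping followed another order. In Y36C cells under E7107 its mean was 6.72% for exons of 3 to 40 bases, 3.22% for 50 to 250, 2.41% for 251 to 399, 2.11% for 400 to 599, 3.18% for 600 to 999, 2.30% for 1000 to 1500 and 3.79% for exons over 1500 bases. In WT cells the corresponding means were 3.88, 2.39, 2.33, 2.59, 3.82, 2.07 and 3.25%. The classes of 1000 to 1500 and over 1500 bases held 99 and 131 exons and are the least certain.

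**Figure D2:**
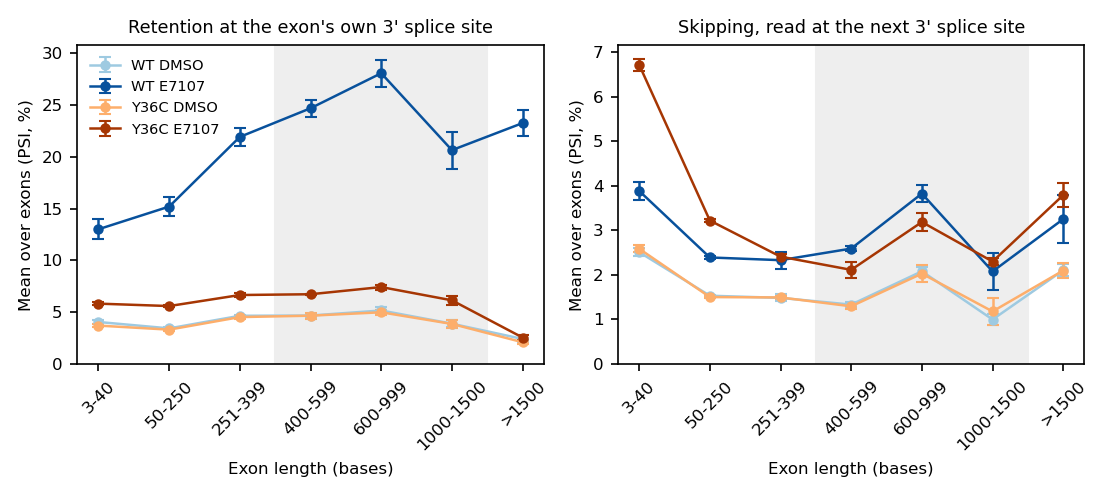
Mean PSI (%) over exons by exon length in bases, for retention at the exon's own 3′ splice site (left) and skipping (right) in the 4 groups, with the SD of 6 samples as bars and the range of 400 to 1500 bases shaded. Retention in WT E7107 was 15.2% for exons of 50 to 250 bases and 28.1% for 600 to 999 bases, and skipping in Y36C E7107 was 6.72% for exons of 3 to 40 bases and 2.11% for 400 to 599 bases.

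Skipping of long exons was also higher under E7107 in both lines, at low levels on average. Skipping is given as the PSI of the skipping junction at the next 3′ splice site. Over 748 sets it was 1.55% ± 0.06 in WT DMSO and 2.96% ± 0.08 in WT E7107, and 1.54% ± 0.08 in Y36C DMSO and 2.52% ± 0.12 in Y36C E7107. For exons of 50 to 250 bases it was 2.39% ± 0.02 in WT and 3.22% ± 0.04 in Y36C cells under E7107. Which line had more skipping of long exons depended on the measure. Read at the upstream 5′ splice site, the mean was 3.04% ± 0.11 in WT E7107 and 3.00% ± 0.22 in Y36C E7107, with overlapping samples, while the shorter exons had 2.51% ± 0.06 and 3.36% ± 0.05. At the next 3′ splice site the median over long exons was 0.423% in WT E7107 and 0.482% in Y36C E7107, in the reverse order of the means. In WT cells skipping rose at 38 and fell at 14 of 100 long exons tested (38.0% higher), beside 38.8% higher and 11.6% lower among all skipping junctions. In Y36C cells it rose at 43 and fell at 2 of 129 tested (33.3% higher), beside 58.5% higher and 0.475% lower among all skipping junctions and 56.6% higher among exons of 50 to 250 bases. Under E7107 skipping was higher in Y36C than in WT cells at 38 and lower at 28 of 135 long exons tested (28.1% and 20.7%), beside 44.8% and 20.9% of all skipping junctions. The interaction was positive at 33 and negative at 26 of 152, beside 35.9% positive and 17.6% negative among all skipping junctions. The difference between long exons and the other exons was described and not tested. The same filter on samples at 0 held for these junctions. Of the 38 and 43 increases, 23 in WT and 24 in Y36C cells entered only through the E7107 group, with 1 or more DMSO samples at 0, and for 7 and 2 of them all DMSO samples were at 0. Exons that entered in this way had to differ, so these counts describe the calls and support nothing further.

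Because unspliced reads take part of the total at a site, skipping was also set against inclusion alone. For a class, this share was the summed skipping PSI over the summed skipping and inclusion PSI in each sample. It is not a mean over exons, and exons with much retention weigh less in it. For long exons it was 1.66% ± 0.06 in WT DMSO and 3.96% ± 0.17 in WT E7107, and 1.64% ± 0.08 and 2.74% ± 0.14 in Y36C cells. For exons of 50 to 250 bases this share went from 1.60% ± 0.02 to 2.84% ± 0.02 in WT and from 1.56% ± 0.01 to 3.45% ± 0.05 in Y36C cells. The samples of the 2 lines under E7107 did not overlap in either class. This share is read at the next 3′ splice site, and the order of the lines in long exons was not seen in the PSI read at the upstream 5′ splice site.

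Among long exons, retention was highest after short upstream introns and skipping in WT E7107 was highest after long ones. Long exons as a class had longer upstream introns (median 2857 bases) than exons of 50 to 250 bases (1694 bases), and 8.95 percentage points more G and C than the 300 bases before them, against 5.24 points. In WT cells under E7107, retention was 31.5% ± 1.3 at the 66 long exons after an intron of up to 300 bases, 33.6% ± 0.5 after 301 to 1000 bases, 29.5% ± 0.9 after 1001 to 3000, 24.1% ± 1.5 after 3001 to 10000 and 13.6% ± 1.6 at the 152 exons after a longer intron. Exons of 50 to 250 bases had lower retention in the same group in every one of these classes, from 20.6% ± 0.8 to 8.76% ± 1.01. Skipping of long exons in WT E7107 ran the other way, from 1.53% ± 0.29 after introns of up to 300 bases, where WT DMSO had 1.83% ± 0.20, to 4.94% ± 0.40 after introns over 10000 bases, where WT DMSO had 1.89% ± 0.22. In Y36C cells under E7107, retention was 17.6% ± 0.5 after introns of up to 300 bases, against 8.66% ± 0.69 under DMSO, and 2.24% ± 0.26 after introns over 10000 bases, against 1.85% ± 0.31. Skipping of long exons in Y36C E7107 was 3.12% ± 0.22 in the shortest class and 3.16% ± 0.45 in the longest. Between these it was 1.46% ± 0.13, 2.22% ± 0.12 and 2.78% ± 0.23. Skipping of exons of 50 to 250 bases was also higher after longer introns in WT cells. From the shortest to the longest class it went from 1.805 to 3.522% under E7107 and from 1.257 to 2.211% under DMSO. In Y36C E7107 these exons had 3.245% in the shortest class, 2.88% after 1001 to 3000 bases and 4.613% in the longest.

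**Figure D3:**
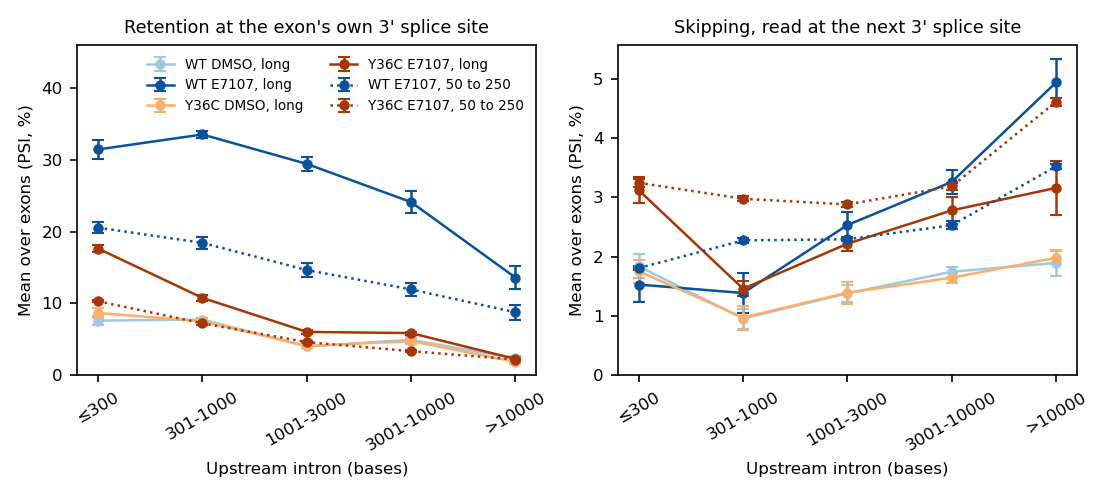
Mean PSI (%) over exons by the length of the upstream intron in bases, for retention at the exon's own 3′ splice site (left) and skipping (right). Solid lines are long exons in the 4 groups, dotted lines are exons of 50 to 250 bases under E7107, and bars are the SD of 6 samples. In WT E7107, retention at long exons was 33.6% after introns of 301 to 1000 bases and 13.6% after introns over 10000 bases, while skipping was 1.38 and 4.94%.

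The 36 long exons whose skipping rose in WT cells had a median upstream intron of 8778 bases with 35.7% G and C in its last 300 bases, and the 27 skipped less in Y36C than in WT cells under E7107 had 13300 bases and 35.0%. The 41 whose skipping rose in Y36C cells had 3833 bases and 36.7%. The 37 skipped more in Y36C than in WT cells had 2236 bases and 46%. Retention that rose in Y36C cells was found at 82 exons, counted with all that had reads in the samples compared, with a median upstream intron of 731 bases and 53.8% G and C, against 2250 bases and 47.7% at the 182 that were tested and not called. In WT cells the 377 exons with increased retention and the 71 tested and not called both had a median upstream intron of 2254 bases. These are descriptions of lists chosen by the calls themselves.

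CRKL, an adaptor protein that links tyrosine kinases to RAS and RAP signalling, had the largest called increase in skipping in WT cells among long exons with an SD of at most 10 points in each group, the condition for all exons named here. Its exon of 466 bases at chr22:21288067-21288532 is coding and lies between introns of 15533 and 15466 bases. Skipping at CRKL was 0 to 1.32% (median 0%) in the 6 WT DMSO samples and 26.7 to 33.3% (median 30.1%) in the 6 WT E7107 samples, against 0 to 1.06% (median 0%) and 0 to 2.48% (median 1.59%) in those of Y36C cells. Its WT E7107 samples stood apart from the other 18. The difference was 30.2 points in WT cells (change in log odds 3.66 ± 0.15, SE, adjusted p = 2.22e-09, limma), and the interaction had an adjusted p of 8.19e-09. Every other group held samples at 0, so CRKL was tested only through the group where it was high. Its p therefore describe the call and are no further support. The same holds for every p below where the lower group held samples at 0, as at CHSY1, TIPARP, FRS2, PLEKHH3, STEAP1 and CAMKK2, and at KLF4 in WT cells. Retention at its own 3′ splice site was 6.87 to 11.7% (median 7.9%) in WT E7107 and at most 0.498% in every other sample.

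FOXO3, a forkhead transcription factor, has an exon of 1435 bases at chr6:108984658-108986092 that follows an intron of 101625 bases. Under DMSO skipping was 0% in every sample in WT and 0% in every sample in Y36C cells, and under E7107 it was 10.7 to 40% (median 26.4%) in WT and 0% in every sample in Y36C cells. All samples outside WT E7107 were at 0, so the junction was tested only because of the group where it was high, and no p is given. Its inclusion was 10.2 to 28.6% (median 13.4%) in WT E7107 and 81.2 to 100% (median 89.2%) in Y36C E7107, and the unspliced share at the next 3′ splice site reached 42.9 to 67.9% (median 59.4%) in WT E7107.

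CHSY1, which makes chondroitin sulfate, has a coding exon of 496 bases (chr15:101775287-101775782) between introns of 15559 and 56101 bases. At CHSY1, skipping was 0 to 2.38% (median 0%) under DMSO and 15.2 to 37.04% (median 21.1%) under E7107 in WT cells, and 0 to 3.08% (median 1.28%) and 0 to 4.76% (median 0%) in Y36C cells. The WT E7107 samples were above all others, and 1 of them, at 37.04%, was well above its 5 replicates at 15.2 to 22.9% (adjusted p = 4.99e-07, limma). TIPARP, a mono-ADP-ribosyltransferase, has an exon of 958 bases (chr3:156395446-156396403). Skipping at TIPARP was 0 to 2.13% (median 0%) in the 6 WT DMSO samples and 20.6 to 28.2% (median 23.5%) in the 6 WT E7107 samples, against 0 to 2.56% (median 0%) and 2.44 to 11.4% (median 5.69%) in those of Y36C cells. Here skipping rose in both lines, by 23.4 points in WT (adjusted p = 4.56e-08, limma) and by 5.36 points in Y36C cells (adjusted p = 0.00163), and the interaction was negative (adjusted p = 0.000582).

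MBNL1, a muscleblind regulator of alternative splicing, was partly skipped before treatment. Its exon of 963 bases (chr3:152017194-152018156) lies between introns of 30312 and 114573 bases, and its skipping is annotated. Under DMSO skipping was 6.93 to 11.7% (median 9.17%) in WT and 6.18 to 11.1% (median 8.72%) in Y36C cells, and under E7107 it was 24.3 to 31.4% (median 28.3%) in WT and 7.02 to 14.2% (median 9.48%) in Y36C cells. The 3 other groups overlapped one another. Skipping rose in WT cells (adjusted p = 4.69e-07, limma) and was 18.3 points lower in Y36C than in WT cells under E7107 (adjusted p = 2.19e-06), while in Y36C cells the E7107 effect had an adjusted p of 0.476.

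**Figure D4:**
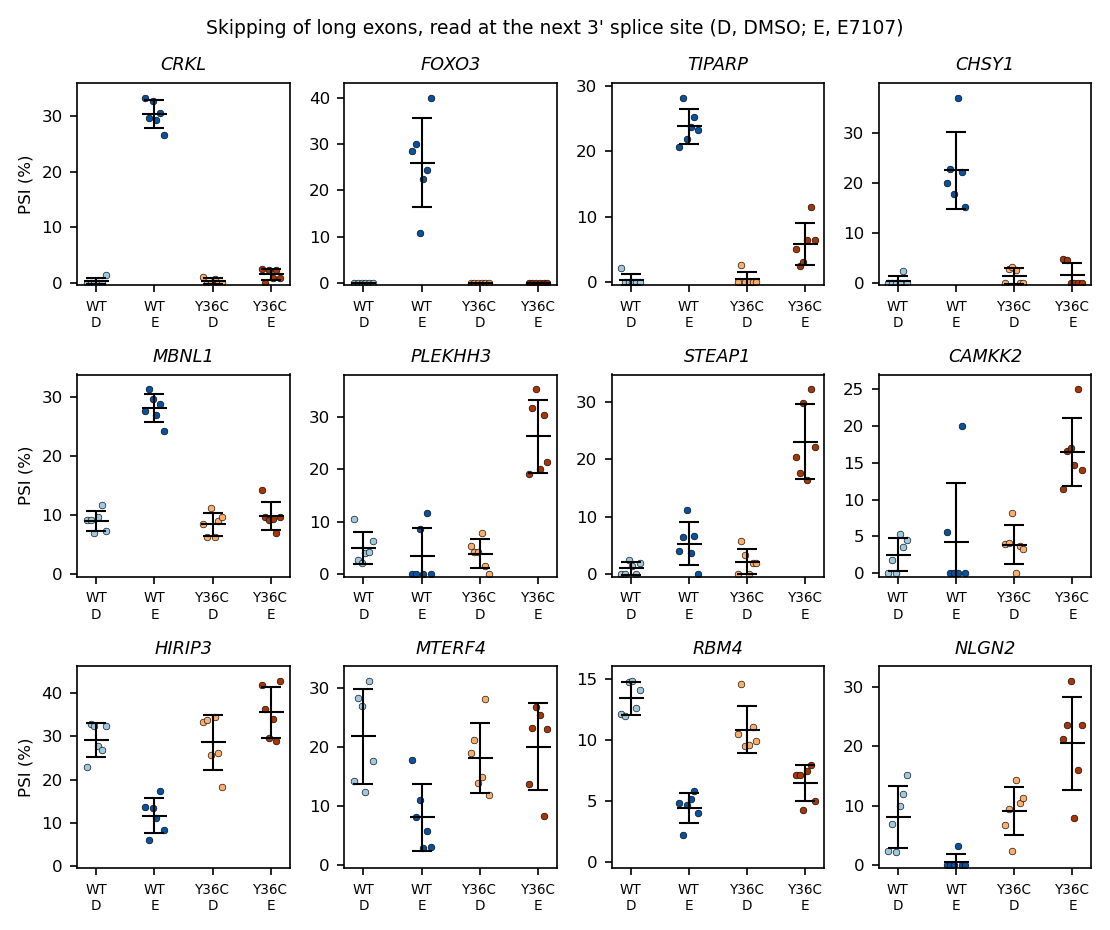
Skipping of 12 long exons as PSI (%) in each of the 24 samples (D, DMSO; E, E7107), with mean and SD of 6 samples. CRKL, FOXO3, CHSY1, TIPARP and MBNL1 were highest in WT E7107, PLEKHH3, STEAP1 and CAMKK2 in Y36C E7107 on average, and HIRIP3, MTERF4, RBM4 and NLGN2 were lower in WT E7107 than in WT DMSO.

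Other long exons were skipped in Y36C cells. PLEKHH3 has a coding exon of 459 bases (chr17:40821936-40822394) between introns of 196 and 296 bases. At PLEKHH3, skipping was 2.22 to 10.5% (median 4.12%) under DMSO and 0 to 11.8% (median 0%) under E7107 in WT cells, and 0 to 7.84% (median 4.24%) and 19 to 35.3% (median 25.9%) in Y36C cells. All Y36C E7107 samples were above all samples of the other groups (adjusted p = 0.00112 in Y36C cells and 0.000738 between the lines under E7107, limma). Against inclusion alone, skipping was 13.1% ± 21.4 in WT E7107, with single samples from 0 to 50%. It was 43.4% ± 13.1 in Y36C E7107, from 31.6 to 62.1%, so the lines overlapped on that scale. Retention at its own 3′ splice site was 42.9 to 68.4% (median 50%) in WT E7107 and 21.3 to 52.2% (median 27.8%) in Y36C E7107, and it rose in both lines (adjusted p = 1.77e-05 and 0.0211, limma).

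STEAP1, a metalloreductase-family membrane protein, has a coding exon of 513 bases (chr7:89790119-89790631). Skipping at STEAP1 was 0 to 2.47% (median 0.714%) in the 6 WT DMSO samples and 0 to 11.1% (median 5.23%) in the 6 WT E7107 samples, against 0 to 5.71% (median 1.89%) and 16.4 to 32.2% (median 21.3%) in those of Y36C cells. The Y36C E7107 samples were again the highest (adjusted p = 0.000383, limma). MCPH1, microcephalin, a regulator of chromosome condensation, has a coding exon of 1155 bases (chr8:6301914-6303068). Under DMSO skipping was 0 to 8.33% (median 3.3%) in WT and 2.94 to 12.2% (median 5.53%) in Y36C cells, and under E7107 it was 0% in every sample in WT and 14.5 to 28.6% (median 22.2%) in Y36C cells. Skipping rose in Y36C cells (adjusted p = 0.000991, limma), and with WT E7107 at 0 no p is given between the lines. CAMKK2, a kinase of the calcium–calmodulin cascade, has an exon of 530 bases (chr12:121711859-121712388) after an intron of 22052 bases. At CAMKK2, skipping was 0 to 5.36% (median 2.64%) under DMSO and 0 to 20% (median 0%) under E7107 in WT cells, and 0 to 8.2% (median 3.82%) and 11.4 to 25% (median 15.7%) in Y36C cells. The Y36C increase was called (adjusted p = 0.00497, limma), with 1 WT E7107 sample at 20% inside the range of the Y36C E7107 samples.

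HIRIP3, MTERF4, RBM4 and NLGN2 had less skipping in WT cells under E7107. HIRIP3, a protein that binds the histone chaperone HIRA, has a coding exon of 938 bases (chr16:30005227-30006164) between introns of 259 and 97 bases. Skipping at HIRIP3 was 22.9 to 32.9% (median 30%) in the 6 WT DMSO samples and 6.06 to 17.3% (median 12.2%) in the 6 WT E7107 samples, against 18.3 to 34.4% (median 29.7%) and 28.9 to 42.9% (median 35.2%) in those of Y36C cells. WT E7107 lay below the other groups, by 24 points against Y36C E7107 (adjusted p = 4.3e-05, limma). Retention at its own 3′ splice site rose in WT cells, to 20.6 to 32.3% (median 29.5%). Set against inclusion alone, its skipping share was 30.3% ± 4.5 in WT DMSO and 14.8% ± 5.0 in WT E7107, in the same order as its PSI.

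In MTERF4, which acts in mitochondrial ribosome assembly, the 2 scales went apart. Its coding exon of 499 bases lies at chr2:242038811-242039309. Under DMSO skipping was 12.5 to 31.2% (median 22.3%) in WT and 11.9 to 28.1% (median 17%) in Y36C cells, and under E7107 it was 2.86 to 17.9% (median 7%) in WT and 8.33 to 26.8% (median 23.2%) in Y36C cells. The decrease in WT cells was called (adjusted p = 0.00827, limma), but inclusion went from 62.5 to 80% (median 70.2%) to 0 to 20% (median 11%) and the unspliced share reached 67.9 to 97% (median 79.4%). Against inclusion alone, skipping was 23.3% ± 8.1 in WT DMSO and 53.5% ± 28.3 in WT E7107, with single samples from 12.5 to 100%. For this exon the lower PSI of the skipping junction therefore does not show fewer skipped among the spliced RNAs.

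RBM4, an RNA-binding regulator of splicing whose reads are uncertain because of its close paralog RBM4B, has an exon of 691 bases (chr11:66410921-66411611). At RBM4, skipping was 11.9 to 14.8% (median 13.3%) under DMSO and 2.26 to 5.8% (median 4.75%) under E7107 in WT cells, and 9.49 to 14.5% (median 10.2%) and 4.26 to 7.93% (median 7.12%) in Y36C cells. Skipping fell in both lines (adjusted p = 1.23e-05 in WT and 0.00806 in Y36C cells, limma), and its share against inclusion alone also went from 14.3% ± 1.3 to 6.43% ± 1.48 in WT cells. NLGN2, a synaptic adhesion protein, has an exon of 701 bases (chr17:7311331-7312031) at the inclusion limit of the rule. Skipping at NLGN2 was 2.27 to 15.2% (median 8.49%) in the 6 WT DMSO samples and 0 to 3.23% (median 0%) in the 6 WT E7107 samples, against 2.38 to 14.3% (median 9.98%) and 8 to 31% (median 22.4%) in those of Y36C cells. The groups of the 2 lines did not overlap under E7107 (adjusted p = 6.26e-06, limma), and the increase in Y36C cells missed the threshold (adjusted p = 0.0554).

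The largest changes in retention were near complete and occurred in WT cells. KLF4, a Krüppel-like transcription factor, has a coding exon of 973 bases (chr9:110249576-110250548) between introns of 662 and 102 bases. Under DMSO retention was 0 to 12.1% (median 5.09%) in WT and 2.38 to 16.2% (median 6.85%) in Y36C cells, and under E7107 it was 95.1 to 98.4% (median 97.3%) in WT and 4.88 to 14.3% (median 7.7%) in Y36C cells. Its WT E7107 samples were all above 95% and the other 18 were all below 17% (adjusted p = 2.45e-07 in WT cells and 1.14e-09 between the lines, limma). Skipping of the exon lay between 0 and 5.09% in all samples. At the next 3′ splice site, inclusion in WT E7107 was 9.17 to 14.9% (median 11.2%) and the unspliced share 84.6 to 90.8% (median 88.8%).

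KLF2, a related factor, has a coding exon of 817 bases (chr19:16436027-16436843) after an intron of 217 bases. At KLF2, retention was 10.1 to 18.6% (median 14.1%) under DMSO and 92.9 to 96.4% (median 94.4%) under E7107 in WT cells, and 6.31 to 17.9% (median 13.1%) and 3.7 to 16.1% (median 8.78%) in Y36C cells. DUSP6, a phosphatase of ERK, has a coding exon of 438 bases (chr12:89744365-89744802) after an intron of 614 bases. Retention at DUSP6 was 3.06 to 7.46% (median 5.15%) in the 6 WT DMSO samples and 91 to 93.9% (median 93.1%) in the 6 WT E7107 samples, against 6.28 to 10% (median 8.1%) and 3.81 to 9.49% (median 7.39%) in those of Y36C cells. In both exons the WT E7107 samples were far above the other groups, with adjusted p of 3.71e-10 and 1.27e-10 in WT cells and of 0.413 and 0.68 in Y36C cells (limma). In PSRC1, a microtubule-associated protein of the spindle, with an exon of 442 bases (chr1:109824241-109824682), retention was 5 to 12.9% (median 6.22%) in WT DMSO and 90.6 to 96.2% (median 94.7%) in WT E7107. LRRC14, with an exon of 585 bases between introns of 183 and 88 bases, went from 0 to 5% (median 1.28%) to 89.7 to 96.5% (median 92.3%). In neither did the Y36C increase pass the threshold (adjusted p = 0.0661 and 0.461, limma).

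**Figure D5:**
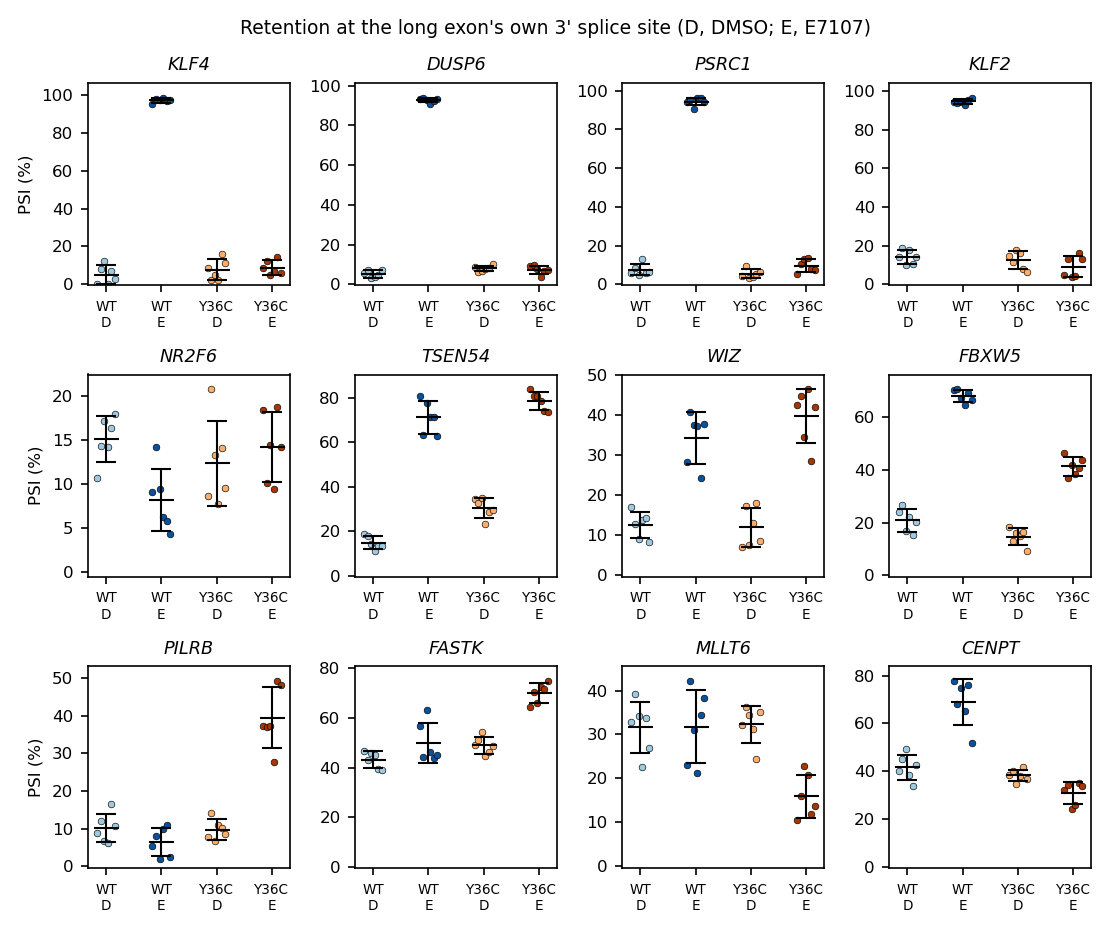
Retention at the exon's own 3′ splice site as PSI (%) for 12 long exons in each of the 24 samples (D, DMSO; E, E7107), with mean and SD of 6 samples. KLF4, DUSP6, PSRC1 and KLF2 were above 90% in WT E7107 alone, TSEN54, WIZ and FBXW5 were raised in both lines, PILRB, FASTK and MLLT6 changed in Y36C cells, and CENPT went up in WT and down in Y36C cells.

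A smaller set was retained in Y36C cells as well. TSEN54, a subunit of the tRNA splicing endonuclease, has a coding exon of 629 bases. Under DMSO retention was 11.2 to 18.9% (median 13.8%) in WT and 23.2 to 34.9% (median 31.2%) in Y36C cells, and under E7107 it was 62.7 to 80.6% (median 71.4%) in WT and 73.6 to 83.7% (median 79.6%) in Y36C cells. Retention was already higher in Y36C than in WT cells under DMSO (adjusted p = 0.0159, limma), a call that was lost with the replicate number as a block. It rose in both lines (adjusted p = 8.28e-08 in WT and 1.6e-06 in Y36C cells), and under E7107 the 2 lines overlapped (adjusted p = 0.0819). WIZ, a zinc finger partner of the histone methyltransferases G9a and GLP, has a coding exon of 528 bases (chr19:15536052-15536579). At WIZ, retention was 8.16 to 16.9% (median 13.3%) under DMSO and 24.1 to 40.7% (median 37.4%) under E7107 in WT cells, and 7.04 to 17.9% (median 10.7%) and 28.6 to 46.4% (median 42.3%) in Y36C cells. FBXW5, a substrate receptor of cullin ligases, has a coding exon of 421 bases (chr9:139836498-139836918) after an intron of 80 bases. Retention at FBXW5 was 15.2 to 26.5% (median 21.1%) in the 6 WT DMSO samples and 64.5 to 70.4% (median 68.1%) in the 6 WT E7107 samples, against 9.3 to 18.5% (median 15.4%) and 36.8 to 46.3% (median 41.2%) in those of Y36C cells. Retention rose in both lines in WIZ and in FBXW5 (largest adjusted p 0.000304, limma). In FBXW5 it was lower in Y36C than in WT cells under E7107 (adjusted p = 6.41e-07), and in WIZ the lines overlapped (adjusted p = 0.259).

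Retention rose in Y36C cells and was not called in WT cells at PILRB, FASTK and METRN. PILRB, a paired immunoglobulin-like receptor whose reads are uncertain because of its close paralog PILRA, has an exon of 640 bases (chr7:99950996-99951635) after an intron of 102 bases. Under DMSO retention was 6.25 to 16.5% (median 9.76%) in WT and 6.8 to 14.3% (median 9.49%) in Y36C cells, and under E7107 it was 2.04 to 11.1% (median 6.76%) in WT and 27.6 to 49.3% (median 37.3%) in Y36C cells. The Y36C E7107 samples did not overlap with any other group (adjusted p = 4.63e-05, and 9e-06 for the interaction, limma). FASTK, of a family of mitochondrial RNA regulators, had 43.8 to 63.2% (median 45.8%) in WT E7107 and 64.3 to 75% (median 71.2%) in Y36C E7107, and METRN, a secreted factor, 14.6 to 29.1% (median 18.8%) and 30.4 to 36.9% (median 34.9%) (interaction, adjusted p = 0.00829 and 0.00877, limma). These are values under E7107 alone, so the gap between the lines is not the E7107 effect. The interaction in log odds was 0.61 ± 0.18 (SE) at FASTK and 0.6 ± 0.18 at METRN.

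At a few long exons retention fell. In WT cells the largest called decreases under the same condition were at ENSG00000259522, PLAGL1, SCARA3 and NR2F6. NR2F6, an orphan nuclear receptor, has a coding exon of 567 bases (chr19:17346308-17346874). At NR2F6, retention was 10.8 to 18% (median 15.4%) under DMSO and 4.35 to 14.3% (median 7.67%) under E7107 in WT cells, and 7.76 to 20.8% (median 11.5%) and 9.52 to 18.8% (median 14.4%) in Y36C cells. While the boundary at its own 3′ splice site fell (adjusted p = 0.00768, limma), the boundary at the next 3′ splice site rose from 1.68 to 5.9% (median 4.02%) to 50 to 58.8% (median 55.7%), so the 2 introns of 1 exon moved in opposite directions. ENSG00000259522 had 10.3 to 20% (median 12.8%) in WT DMSO and 0 to 10.4% (median 5.53%) in WT E7107, with an increase in Y36C cells (adjusted p = 0.0419, limma). PLAGL1, a zinc finger transcription factor, had 4.25 to 16% (median 8.09%) and 0 to 11.1% (median 0%), and SCARA3, of the scavenger receptor class A family, 6.38 to 15.7% (median 8.89%) and 0 to 10.3% (median 1.91%).

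In Y36C cells the 3 decreases were at MLLT6, OMA1 and CENPT. MLLT6, a fusion partner of the methyltransferase gene KMT2A in leukaemia, had 24.5 to 36.4% (median 33.2%) in Y36C DMSO and 10.5 to 22.7% (median 14.8%) in Y36C E7107 (adjusted p = 0.00176, limma), and no change was called in WT cells (adjusted p = 0.999). Retention before the exon of 784 bases of CENPT (chr16:67863668-67864451), a kinetochore protein, rose in WT cells and fell in Y36C cells. Retention at CENPT was 33.9 to 49.2% (median 41.3%) in the 6 WT DMSO samples and 51.7 to 77.8% (median 71.6%) in the 6 WT E7107 samples, against 34.8 to 41.9% (median 38.2%) and 24.2 to 35.2% (median 33%) in those of Y36C cells. The adjusted p were 0.000305 and 0.0405 (limma). OMA1, a mitochondrial protease, had 5 to 21.4% (median 8.89%) in Y36C DMSO and 0 to 6.67% (median 0%) in Y36C E7107 (adjusted p = 0.0252), and fell in WT cells too (adjusted p = 0.0339). The CENPT and OMA1 decreases in Y36C cells missed the threshold under an alternative setting. A boundary read cannot tell a retained intron from a transcript that starts or ends inside it, nor, as the strand of the libraries is not given, from a gene on the other strand.

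Long exons were counted in 5 gene lists, beside the 82.9% of long exons and 69.0% of all boundaries with a rise in WT cells, 30.3 and 26.6% in Y36C cells, and the 80.2 and 61.6% that were lower in Y36C than in WT cells under E7107. Most lists hold few tested exons, and their counts show nothing particular to a list. Of 34 long exons in 28 chromatin regulator genes, retention rose at 20 of 21 tested in WT and at 2 of 4 tested in Y36C cells, and under E7107 it was lower in Y36C cells at 20 and higher at 1 of 21. Its median over 33 exons was 1.10% under DMSO and 28.95% under E7107 in WT cells, and 0.87% and 1.42% in Y36C cells. Of 14 long exons in mitosis and centrosome genes, retention rose at 8 of 10 tested in WT and at 0 of 6 in Y36C cells, where CENPT fell, and under E7107 it was lower in Y36C cells at 7 and higher at 0 of 9. Of 15 in RNA processing genes it rose at 10 of 11 in WT and at 1 of 7 in Y36C cells, and all 11 tested were lower in Y36C under E7107. Of 7 in DNA damage response genes it rose at 2 and fell at 1 (PMS1) of 3 in WT cells, and rose at 0 of 2 in Y36C cells, and under E7107 it was lower in Y36C cells at 2 and higher at 2 of 4. Of 12 in zinc finger genes it rose at 5 of 7 in WT and at 2 of 6 in Y36C cells, and under E7107 it was lower in Y36C cells at 5 and higher at 0 of 7. None of the 6 genes that the study names in its RNA-seq results had a long exon here.

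Few skipping junctions of these lists could be tested. Between the lines under E7107, 2 of 3 differed in mitosis genes, 1 of 4 in RNA processing genes, 1 of 1 in DNA damage response genes, 2 of 2 in zinc finger genes and 0 of 3 in chromatin regulator genes. Among all skipping junctions 44.8% were higher and 20.9% lower in Y36C, and among long exons 28.1% and 20.7%. Such small counts show nothing particular to a list. MATR3, a nuclear matrix RNA-binding protein, has an exon of 1089 bases (chr5:138642928-138644016). Under DMSO skipping was 2.48 to 6.25% (median 3.51%) in WT and 2.73 to 5.54% (median 3.95%) in Y36C cells, and under E7107 it was 0.809 to 1.98% (median 1.077%) in WT and 6.32 to 9.62% (median 7.7%) in Y36C cells. It fell in WT and rose in Y36C cells (adjusted p = 0.000398 and 0.00352, limma), and the lines did not overlap under E7107. TACC3, a spindle protein, has a coding exon of 1080 bases (chr4:1729435-1730514). At TACC3, skipping was 3.38 to 7.72% (median 3.94%) under DMSO and 8.74 to 15.2% (median 9.7%) under E7107 in WT cells, and 1.72 to 6.04% (median 5.24%) and 3.6 to 8.1% (median 5.3%) in Y36C cells. Skipping rose in WT cells and was not called in Y36C cells (adjusted p = 0.000347 and 0.47, limma). ESPL1, the protease separase, had 0 to 18.8% (median 8.51%) skipping in WT E7107 and 15.5 to 27.9% (median 21%) in Y36C E7107, and PMS1, of the mismatch repair family, 7.69 to 30% (median 15.5%) and 2.17 to 11.1% (median 9.31%) (adjusted p = 0.0378 and 0.0419, limma). ZNF7 had 0 to 3.12% (median 0%) and 3.37 to 8.16% (median 6.44%), and ZNF655 0 to 8.16% (median 1.97%) and 2.78 to 14.3% (median 8.54%) (adjusted p = 0.000135 and 0.0468, limma). Against inclusion alone, the lines overlapped under E7107 at ZNF7 (0 to 20% in WT and 3.61 to 8.7% in Y36C cells) and at ESPL1 (0 to 21.4% and 16.9 to 31.1%). The differences of PMS1, ESPL1 and ZNF655 missed the threshold without the filter on low values.

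Over all 9284 sets, most of them multi-exon spans, skipping of the whole span rose at 385 and fell at 70 of 811 tested in WT cells (47.5% higher, beside 38.8% of all skipping junctions). In Y36C cells it rose at 481 and fell at 4 of 877 (54.8% higher, beside 58.5%). Under E7107 it was higher in Y36C at 418 and lower at 327 of 1149, or 36.4 and 28.5%, beside 44.8 and 20.9%. The interaction was positive at 367 and negative at 302 of 1236, or 29.7 and 24.4%, beside 35.9 and 17.6%. Retention at the first 3′ splice site of the span rose at 4108 and fell at 324 of 5673 in WT cells (72.4% higher, beside 69.0% of all boundaries) and rose at 1613 and fell at 46 of 4438 in Y36C cells (36.3% higher, beside 26.6%). Under E7107 it was lower in Y36C at 3669 and higher at 846 of 5837, or 62.9 and 14.5%, beside 61.6 and 12.5%. In WT cells and between the lines these retention shares are near the background. At the next 3′ splice site retention rose at 4047 of 5643 in WT and at 1403 of 4413 in Y36C cells, and was lower in Y36C under E7107 at 3670 of 5796. Mean retention at the first 3′ splice site was 18.3% in WT E7107 for multi-exon spans and 18.2% for interrupted exons, against 25.4% for long exons. These spans share sites with one another and are not independent.

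Among multi-exon spans the same rule named FRS2, an adaptor of fibroblast growth factor receptors. Skipping at FRS2 was 0 to 6.45% (median 2.27%) in the 6 WT DMSO samples and 52.4 to 62.5% (median 56.9%) in the 6 WT E7107 samples, against 0% in every sample and 0 to 11.1% (median 2.63%) in those of Y36C cells. The span of 1192 bases with 1 annotated intron follows an intron of 60334 bases (adjusted p = 4.35e-06, limma). Skipping of a span in SLC35F2 rose in both lines, to 15.5 to 32% (median 22.4%) in WT E7107 and 37.8 to 45.8% (median 40.9%) in Y36C E7107, and in MBD1, a methyl-CpG binding protein, it was 0 to 4.35% (median 0%) and 23.9 to 31.1% (median 30.3%). ENOSF1 had 9.09 to 23.7% (median 12.2%) in WT DMSO and 1.89 to 6.67% (median 2.14%) in WT E7107, and ADCY7 3.85 to 10% (median 6.39%) in Y36C DMSO and 0 to 4% (median 1.56%) in Y36C E7107, a decrease that missed the threshold under 3 of the alternative settings. Retention was near complete in WT E7107 before spans of NR4A1, an orphan nuclear receptor, with 94.4 to 98.7% (median 98.2%), and of PER1, a clock protein, with 96.9 to 99% (median 98.5%). At EXOSC10, a nuclease of the RNA exosome, it was 4.84 to 12.3% (median 5.62%) in WT E7107 and 53.8 to 65.8% (median 59.8%) in Y36C E7107, at LARGE2 27 to 48.1% (median 35.3%) and 58.2 to 79.6% (median 66.2%), and at AADAT 0 to 20% (median 3.33%) and 36.1 to 62.8% (median 50.9%). EXOSC10 differed between the genotypes under DMSO as well (adjusted p = 0.0172, limma), a call that was lost with the replicate number as a block.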

How the data were processed

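RNA-seq libraries of 24 HCT116 samples in 4 groups of 6 were compared. The authors aligned reads with STAR to hg19, and the deposited table gives for each sample the percent of reads at a splice site that use a junction or cross the boundary unspliced. Of 1830076 rows, 6433 (mitochondrial or without strand) were left out. Read counts were not used here, so depth is unknown.

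Sets of junctions were built as described above, with the annotation of GRCh37. The natural log of the odds (PSI + 1)/(100 − PSI + 1) was fitted with limma 3.58.1 in R 4.3.3 over all rows whose splice site had reads throughout the samples compared, if no sample of 1 or more groups was at 0. Tests were two-sided, with Benjamini–Hochberg adjustment over all rows and calls at 0.05. The fit was checked on simulated data in which few rows were shifted. It recovered 21% of rows shifted by 1 unit of log odds and 49% of those shifted by 2. A result that was not called therefore does not show that there was no change. For each comparison and direction, the 4 exons with the largest called difference and an SD of at most 10 points in each group were named, and up to 4 per gene list by the same conditions. Members, lists and rules were chosen with earlier results of these data known.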

Additional observations from a re-analysis of the deposited data

Results flagged for a closer look

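Of 232 groups of 6 samples examined, 21 had 1 sample far from its 5 replicates by Dixon's criterion, and chance gives about 1 in 20. WT DMSO replicate 1 had the highest mean over all spans for retention at the first 3′ splice site (4.84%), at the 5′ splice site at the end (4.25%) and at the next 3′ splice site (4.62%). In several others 1 sample was above 0 and its replicates were at 0. For skipping these were CRKL in WT DMSO (1.32%), TIPARP in WT DMSO (2.13%) and Y36C DMSO (2.56%), CHSY1 in WT DMSO (2.38%) and NLGN2 (3.23%) and ZNF7 (3.12%) in WT E7107. Other high samples in skipping were CHSY1 (37.04%) and CAMKK2 (20%) in WT E7107, RBM4 in Y36C DMSO (14.54%) and TACC3 in WT DMSO (7.72%) and WT E7107 (15.22%), and a low one was MBD1 in Y36C DMSO (2.54%). For retention, high samples were PLAGL1 in WT E7107 (11.11%) and Y36C DMSO (19.54%) and SCARA3 (10.26%), OMA1 (22.22%) and EXOSC10 (12.35%) in WT E7107, and a low one was AADAT in Y36C DMSO (9.38%).

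The E7107 effect differed between the lines, by the interaction term of limma with Benjamini–Hochberg adjustment, at 41 of 48 named values, 23 positive and 18 negative. Values in parentheses are the interaction on the natural log odds scale, Y36C effect minus WT effect. These exons were named for large differences, so the share describes the choice. For FOXO3 and MCPH1 a group was at 0 in every sample, and the size of the term depends on the offset of the odds. For skipping the positive terms were at PLEKHH3 (3.07), MBD1 (2.82), NLGN2 (2.80), MCPH1 (2.58), ZNF7 (2.17), ENOSF1 (1.95), MATR3 (1.45), HIRIP3 (1.45), ZNF655 (1.42), STEAP1 (1.36), MTERF4 (1.27), SLC35F2 (0.68) and RBM4 (0.57), and the negative ones at FOXO3 (-3.54), CHSY1 (-3.25), CRKL (-3.03), FRS2 (-2.86), ADCY7 (-1.64), TIPARP (-1.61), MBNL1 (-1.16) and TACC3 (-0.61). For retention at the first 3′ splice site they were positive at AADAT (3.98), PILRB (2.26), ENSG00000259522 (2.23), EXOSC10 (2.07), PLAGL1 (1.67), SCARA3 (1.52), LARGE2 (0.96), NR2F6 (0.86), FASTK (0.61) and METRN (0.60), and negative at KLF4 (-6.19), NR4A1 (-6.11), LRRC14 (-5.73), PER1 (-5.37), DUSP6 (-5.31), KLF2 (-4.89), PSRC1 (-4.59), CENPT (-1.46), MLLT6 (-0.91) and FBXW5 (-0.68).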

How the results depend on the processing

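No count of calls or named value reversed its direction under the alternatives tried. Depth is unknown, so percentages resting on few reads cannot be singled out. Over all 9284 sets, choosing members on DMSO replicates 1 to 3 and leaving these samples out of the tests, and fitting PSI in percent, left each of the 14 counts within 1.5 times its value. Without the filter on low values, skipping rose at 603 in WT cells, and retention at the first 3′ splice site differed between genotypes under DMSO at 12 in place of 25. That DMSO count was 16 with an offset of 0.1 points and 16 with inclusion of at least 80%. The stricter inclusion gave 278 spans with higher skipping in Y36C under E7107 and 237 positive interactions.

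A minimum change of 10 points left skipping higher at 97 in WT and 78 in Y36C cells, retention in Y36C cells higher at 653 (first 3′ splice site) and 497 (next), skipping under E7107 higher at 87 and lower at 84 in Y36C, interactions positive at 75 and negative at 79, and 11 DMSO differences.

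Only annotated exons, and (added after seeing the data) only uninterrupted ones, gave fewer calls because fewer rows are counted. In WT cells skipping rose at 63 and 38, retention at 638 and 377 (first) and 621 and 350 (next). In Y36C cells the counts were 78 and 43, 203 and 80, and 176 and 67. Under E7107 skipping was higher in Y36C at 66 and 38 and lower at 50 and 28, and retention lower at 603 and 369 (first) and 589 and 339 (next). Interactions for skipping were positive at 57 and 33 and negative at 46 and 26, those for retention negative at 552 and 343, and DMSO differences numbered 4 and 3.

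Over single rows, same-numbered samples of different groups did not deviate together (r from -0.049 to 0.03 over 36 pairs, 0 above 0.1, and 7 best with their own number). Correlations over single rows cannot show whether class means shifted together. Mean retention over all spans at the first 3′ splice site was lowest in replicates 4 and 5 of WT E7107 (18.1 and 17.4%). The same replicates were lowest in Y36C DMSO (4.25 and 4.27%), but not in WT DMSO or Y36C E7107. Whether the number marks a shared batch was not tested. With the replicate number as a block, the DMSO count by limma went from 25 to 0 (592 of 4076 had an unadjusted p under 0.05 without the block), those of TSEN54 and EXOSC10 included, and the other 13 counts stayed within 1.5 times.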
